A study of Mus musculus with 52 samples.

Results

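Gene expression in the hippocampus was compared between mice infused with insulin at the low rate and mice infused with saline. The comparison used the 6 hippocampal libraries titled as low rate and the 6 titled as basal, 12 of the 52 libraries in the series, chosen by their titles and not by any measured value. All mice were 3-month-old male C57BL/6J animals. They carried a catheter in the right internal jugular vein and were conscious during a clamp of 3 h. The basal group received saline, and the low group received insulin at 4 mU/kg/min with a 20% glucose solution infused to adjust blood glucose. Another hippocampal group of 6 libraries received insulin at 12 mU/kg/min and is called the high group here. RNA came from whole dissected hippocampus. The labels do not say which libraries came from the same mouse, and the tests rest on the scatter among libraries, which may be technical in part.

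Insulin acts through the insulin receptor and its IRS adaptor proteins, which engage PI3 kinase and AKT. AKT in turn keeps FOXO transcription factors out of the nucleus and raises the activity of SREBP factors, which drive genes of sterol and fatty acid synthesis and uptake. INSIG proteins hold the SREBP escort SCAP in the endoplasmic reticulum when sterols are plentiful. In the brain, the myelin sheath made by oligodendrocytes holds much of the cholesterol. The hippocampus is made of the pyramidal fields CA1 to CA3 and the granule cells of the dentate gyrus. Myelinated fibre tracts, the choroid plexus and the ependyma that lines the ventricle lie directly against it, and the thalamus lies beneath it.

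The 12 libraries held 3240822 to 6219377 counts assigned to genes. Titles carry a tag number, and the tags fall into 6 runs of neighbouring numbers, each with 1 basal, 1 low and 1 high hippocampal library. The labels do not say what the tag stands for. Levels are given in CPM, counts scaled to library depth with the trimmed mean of M values. The pyramidal and field markers summed to between 2502 and 4275 CPM in the basal group and between 2044 and 3543 CPM in the low group, so the labelled tissue carried its defining genes in every library. One library stood apart. The low replicate 5 had the highest myelin sum (18759 CPM) and the lowest dentate granule cell sum (721 CPM) of the 12. Values without it are given beside some of the main lists and genes, and a value given alone may also move.

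No gene passed the test. Of 13515 genes tested, 0 were called at an adjusted p under 0.05 by edgeR's quasi-likelihood test with Benjamini-Hochberg adjustment over all genes, which is 0% of those tested. The smallest adjusted p was 0.156. At an unadjusted p under 0.05 there were 817 genes. Of these, 595 were higher in the low group (4.4% of genes tested) and 222 were lower (1.64%). With the tag run as a batch term there were 1492, of which 836 were higher and 656 lower, so the excess of higher genes was smaller. Without low replicate 5 there were 500, of which 386 were higher and 114 lower. All 6 low libraries lay above all 6 basal libraries for 38 genes (0.281%) and below all of them for 16 genes (0.118%). The low library exceeded the basal library of its own tag run in all 6 runs for 478 genes (3.54%) and lay under it in all 6 runs for 641 genes (4.74%). The median log2 fold change over all genes was -0.01, and 6427 of the 13515 (47.6%) lay above 0. Other tools gave other counts. DESeq2 called 38 genes (0.281%), 37 higher and 1 lower, and limma-voom called 0, with 768 at an unadjusted p under 0.05. A single edgeR fit of all 52 libraries called 101 of 14985 genes (0.674%), all higher. Of the 38 DESeq2 genes, 34 were among these 101. Since the hippocampal edgeR fit called none, the values that follow describe what was measured, with adjusted p-values for the leading genes.

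The genes with the smallest p-values included a sterol sensor and genes of myelinating cells. Insig1, which encodes an endoplasmic reticulum protein that restrains SREBP processing, belongs to a 25-gene list of cholesterol synthesis and uptake, and all 6 of its low libraries lay above all 6 basal libraries. Its promoter is regulated by SREBP in many cells. The 250 bases before the RefSeq start of Insig1 (GRCm38.p6, chr5:28071162-28071411, plus strand) are shown because Insig1 stood out in the list, and those of Hmgcs1 (chr13:119690101-119690350, plus strand), the enzyme that makes HMG-CoA, because it is an SREBP target whose level differed little here. Capitals mark CACGTG (an E-box) and CCAAT on either strand in Insig1, and the sterol regulatory element TCACNCCAC on either strand in Hmgcs1.
Insig1: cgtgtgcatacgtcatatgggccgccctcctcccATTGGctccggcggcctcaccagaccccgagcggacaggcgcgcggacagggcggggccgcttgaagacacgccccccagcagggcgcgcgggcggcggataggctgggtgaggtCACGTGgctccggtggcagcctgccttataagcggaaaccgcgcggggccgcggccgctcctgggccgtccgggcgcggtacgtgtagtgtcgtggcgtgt
Hmgcs1: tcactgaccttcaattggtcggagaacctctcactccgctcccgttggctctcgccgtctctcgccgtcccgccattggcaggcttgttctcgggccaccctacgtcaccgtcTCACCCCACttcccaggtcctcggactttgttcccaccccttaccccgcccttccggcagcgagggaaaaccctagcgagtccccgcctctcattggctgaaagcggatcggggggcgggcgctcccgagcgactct
Among RefSeq promoters of 32851 entries, counted over the same 250 bases and on both strands, 1.05% held TCACNCCAC, 6.02% held CACGTG and 33.8% held CCAAT. Promoters of 17 of the 25 list members were matched by symbol. TCACNCCAC occurred in 1 of the 17, Hmgcs1. CACGTG occurred in 5, among them Insig1, and CCAAT occurred in 16. A member counted if any of its promoters held the letters, while the percentages are per promoter entry, so the units differ. These matches describe letters in a window only.

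Insig1 (chromosome 5, 28071363 to 28078662, GRCm38) measured 31.5 CPM in the lowest basal library, 37.9 at the median and 41.3 in the highest. The low libraries ran from 41.3 through a median of 58.2 to 67.8 CPM, so the groups met at their edges without overlapping. The log2 fold change was 0.60 (SE 0.13, adjusted p = 0.183, edgeR), from a mean of 55.9 ± 9.22 CPM against 36.9 ± 3.62 (SD, n = 6 each), and it was higher in 6 of 6 tag runs. Without low replicate 5 the log2 fold change was 0.58. With the summed myelin level of each library as a covariate it was 0.60. That covariate was added after the data were seen, and because the myelin sums of the groups do not overlap, it and the infusion are hard to separate.

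The rest of the sterol list varied more. Of its 25 members 24 were tested, 0 were called and 18 lay above 0, with a median of 0.22 against -0.01 for all genes tested. At an unadjusted p under 0.05, 6 were higher and 0 lower. Besides Insig1 these included Srebf1, which encodes SREBP1 (0.41, adjusted p = 0.685, edgeR), the sterol carrier gene Stard4 (0.42), and the synthesis enzymes Msmo1 (0.32) and Fdft1 (0.46, or 0.18 without low replicate 5). Hmgcs1 differed by 0.07 (SE 0.13) and Insig2, the second INSIG gene, by -0.05 (SE 0.11). The median of the list was 0.06 without low replicate 5 and 0.03 with the myelin covariate. The pattern was therefore uneven inside the pathway, with Insig1 at its upper end and the early enzyme gene Hmgcs1 near 0.

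Genes of fatty acid synthesis gave a small difference. Of 17 tested, 0 were called, 14 lay above 0, 3 were higher at an unadjusted p under 0.05 and none lower, with a median of 0.08. Scd2, the main stearoyl-CoA desaturase of brain, measured 1080.1, 1182 and 1333 CPM at the lowest, median and highest of the basal libraries. The low libraries measured 1346, 1469 and 1602 CPM, so all 6 lay above every basal library. The log2 fold change was 0.31 (SE 0.10, adjusted p = 0.533, edgeR), with 0.30 without low replicate 5 and 0.33 with the myelin covariate. Elovl1, which elongates very long-chain fatty acids, was higher by 0.56 (SE 0.20, adjusted p = 0.593, edgeR), and its highest low library was replicate 5 at 38.2 CPM, against 22.5 CPM in the next. Without that library the difference of Elovl1 was 0.36. Fasn, the fatty acid synthase, differed by 0.08 (SE 0.14), or by 0.14 without it.

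**Figure D1:**
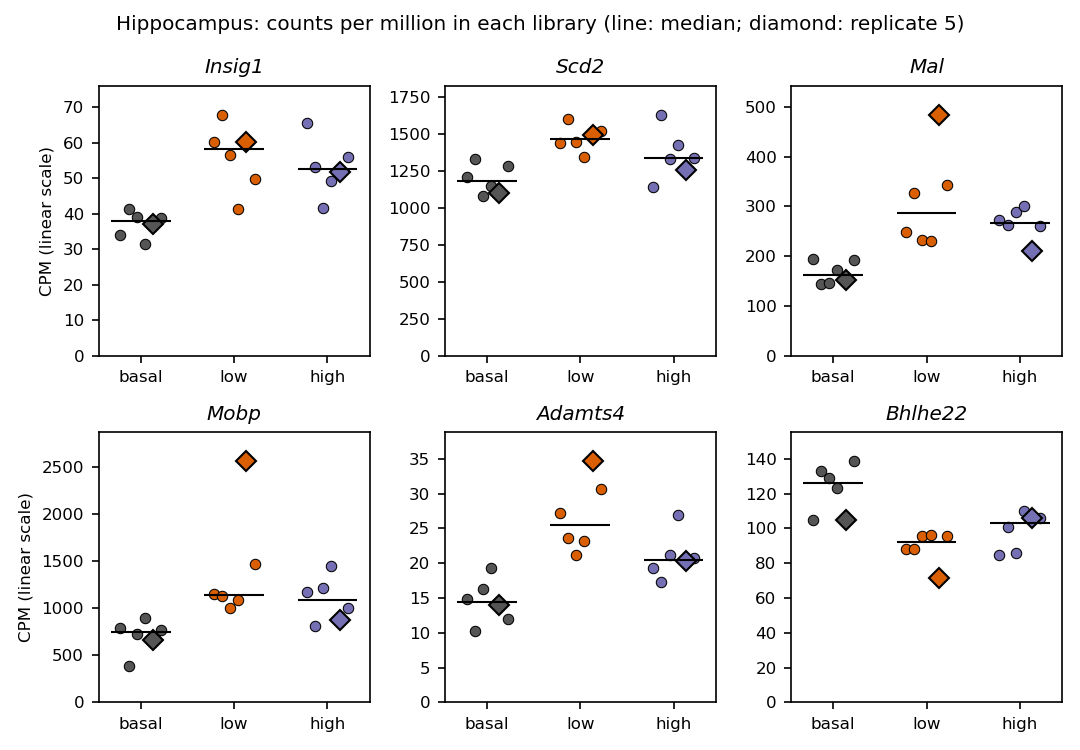
CPM of 6 genes in each hippocampal library, on linear axes from 0, for the basal, low and high groups of 6, with a line at each median and a diamond for replicate 5. All low libraries lie above all basal libraries for Insig1, Scd2, Mal, Mobp and Adamts4 and below them for Bhlhe22, which measured 71.6 to 96.5 CPM against 105 to 138 CPM.

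Genes of mature oligodendrocytes and myelin were higher in the low group across the list. All 17 members tested lay above 0 and all 17 had an unadjusted p under 0.05, with a median of 0.96, but none was called (adjusted p 0.156 to 0.694, edgeR). All 6 low libraries lay above all 6 basal ones for 4 members, Mal, Mobp, Mbp and Cnp, against 0.281% of all genes tested. In 16 of the 17 the low library exceeded the basal library of its tag run in all 6 runs, against 3.54% of all genes tested. In bulk tissue, more oligodendrocytes in the sample and more RNA per oligodendrocyte cannot be told apart.

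Mal, a lipid-raft protein of the myelin membrane (chromosome 2, 127633226 to 127656695), measured 145, 163 and 195 CPM at the lowest, median and highest of the basal libraries. In the low libraries it measured 231, 287 and 484 CPM, the last in replicate 5. The log2 fold change was 0.89 (SE 0.16, adjusted p = 0.156, edgeR), or 0.73 without that library. Mobp, a structural protein of compact myelin (chromosome 9, 120149707 to 120181484), measured 388, 751 and 893 CPM in the basal libraries. The low libraries measured 997, 1137 and 2555 CPM, with replicate 5 far above the next at 1463 CPM. The log2 fold change was 0.99 (SE 0.23, adjusted p = 0.187, edgeR), or 0.73 without low replicate 5. Gjb1, a gap junction protein of oligodendrocytes, was higher by 1.67 (SE 0.40) from a basal mean of only 1.88 CPM.

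The summed myelin level separated the groups. It lay between 2956 and 5403 CPM in the basal libraries and between 6240 and 18759 CPM in the low libraries. Leaving out low replicate 5, the low libraries reached 8920 CPM, still above every basal library. The median log2 fold change of the list was 0.64 without that library, and all 17 members then lay above 0 (0.50 to 1.37). With the myelin sum itself as a covariate the median was 0.08, as the covariate is built from these genes. Precursor markers differed less: of 11 tested, 10 lay above 0, 2 were higher at an unadjusted p under 0.05 and the median was 0.23. Sox10, a transcription factor of the whole oligodendrocyte lineage, was higher by 0.88 (SE 0.28, adjusted p = 0.432, edgeR), or by 0.69 without low replicate 5. Pdgfra, the growth factor receptor that marks precursors, differed by 0.16 (SE 0.13).

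The promoter of Mobp is shown because SOX10 activates myelin genes and because Mobp was among the genes with the clearest separation. The 250 bases before its RefSeq start lie at chr9:120149492-120149741 (GRCm38.p6, plus strand), with ACAAAG, a core recognised by SOX factors, in capitals on either strand.
Mobp: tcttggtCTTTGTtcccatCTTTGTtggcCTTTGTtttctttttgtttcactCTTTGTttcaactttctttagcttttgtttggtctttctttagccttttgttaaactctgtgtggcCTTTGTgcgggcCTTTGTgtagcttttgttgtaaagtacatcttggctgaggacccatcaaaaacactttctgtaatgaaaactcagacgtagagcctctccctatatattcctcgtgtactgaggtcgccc
The window held 6 matches, all on the opposite strand as CTTTGT. Of all RefSeq promoters, 16.5% held at least 1 match in the same window. Of 12 myelin genes matched by symbol, 5 did in at least 1 of their promoters (Cnp, Gjb1, Mag, Mobp and Opalin). That count is per gene, some with several promoters, while the percentage is per promoter entry. Mal, whose adjusted p was smaller than that of Mobp (0.156 against 0.187, edgeR), held 0 matches. A link between these letters and the differences was not tested.

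Several of the 8 genes with the smallest p-values among those higher are known from oligodendrocytes. By the naming rule these included Adamts4, Mal, Tspan2, Clic4, Efhd1, Gatm and Plekhg3, with adjusted p from 0.156 to 0.183 by edgeR. Adamts4, a secreted protease that cleaves proteoglycans and is made by mature oligodendrocytes, measured 10.3, 14.4 and 19.3 CPM in the basal libraries. The low libraries measured 21.1, 25.5 and 34.6 CPM, with no overlap. The log2 fold change was 0.90 (SE 0.16), and 0.47 with the myelin covariate. Tspan2, a tetraspanin of oligodendrocytes, was higher by 0.66 (SE 0.14). Clic4, an intracellular chloride channel protein, was higher by 0.57 (SE 0.12), with 5 of 6 low libraries above every basal one. Gatm, which makes the creatine precursor guanidinoacetate, was higher by 0.69 (SE 0.15). With the myelin covariate the median log2 fold change of the 38 genes called by DESeq2 was 0.33, against 0.90 without it, and 8 of the 38 moved by less than 0.2, Insig1 among them.

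Markers of tissues that border the hippocampus were also higher, but in some low libraries and not others. All 7 ependymal markers tested, from a list of 14, lay above 0 and had an unadjusted p under 0.05, with a median of 1.59 and none called. The other members did not pass the filter on low counts. That filter saw the insulin groups too, so a marker scarce in the basal group could pass through them. Rarres2, for example, measured 0.62 to 1.74 CPM in the basal libraries and 0.89 to 16.2 CPM in the low libraries. The shared direction of the 7 may therefore owe something to the filter. Foxj1, the master regulator of motile cilia, measured 2.23, 3.05 and 9.37 CPM in the basal libraries and 3.74, 14.8 and 33.0 CPM in the low libraries. Its log2 fold change was 1.78 (SE 0.48, adjusted p = 0.278, edgeR), or 1.41 without low replicate 5. The ependymal sums were 51.6 and 57.2 CPM in low replicates 3 and 4, inside the basal range of 38.0 to 89.4 CPM, and 109 to 243 CPM in the other 4.

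Choroid plexus markers split in the same way. All 19 tested lay above 0, 9 had an unadjusted p under 0.05 and none was called, with a median of 1.91. The summed level was 311 to 3247 CPM in the basal group and 398 to 11879 CPM in the low group, and low replicates 3 and 4 were again inside the basal range at 398 and 443 CPM. Ttr, the thyroxine carrier secreted by the choroid plexus, measured 16.3, 64.5 and 1178 CPM in the basal libraries and 21.4, 1968 and 5356 CPM in the low libraries. Its log2 fold change of 2.72 had an SE of 1.34 (adjusted p = 0.830, edgeR). With the choroid plexus sum as a covariate the myelin median was 0.82, the sterol median 0.19 and the ependymal median 0.70. Of 13 thalamus markers tested, 12 lay above 0 with a median of 0.58 and 1 at an unadjusted p under 0.05, and the highest sum was that of low replicate 2 (1319 CPM). Of 12 meningeal and fibroblast markers tested, 11 lay above 0, with a median of 0.64. With the choroid plexus covariate the thalamus median was -0.05 and the meningeal median 0.05. The part of these tissues in the other differences was not tested beyond these covariates.

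**Figure D2:**
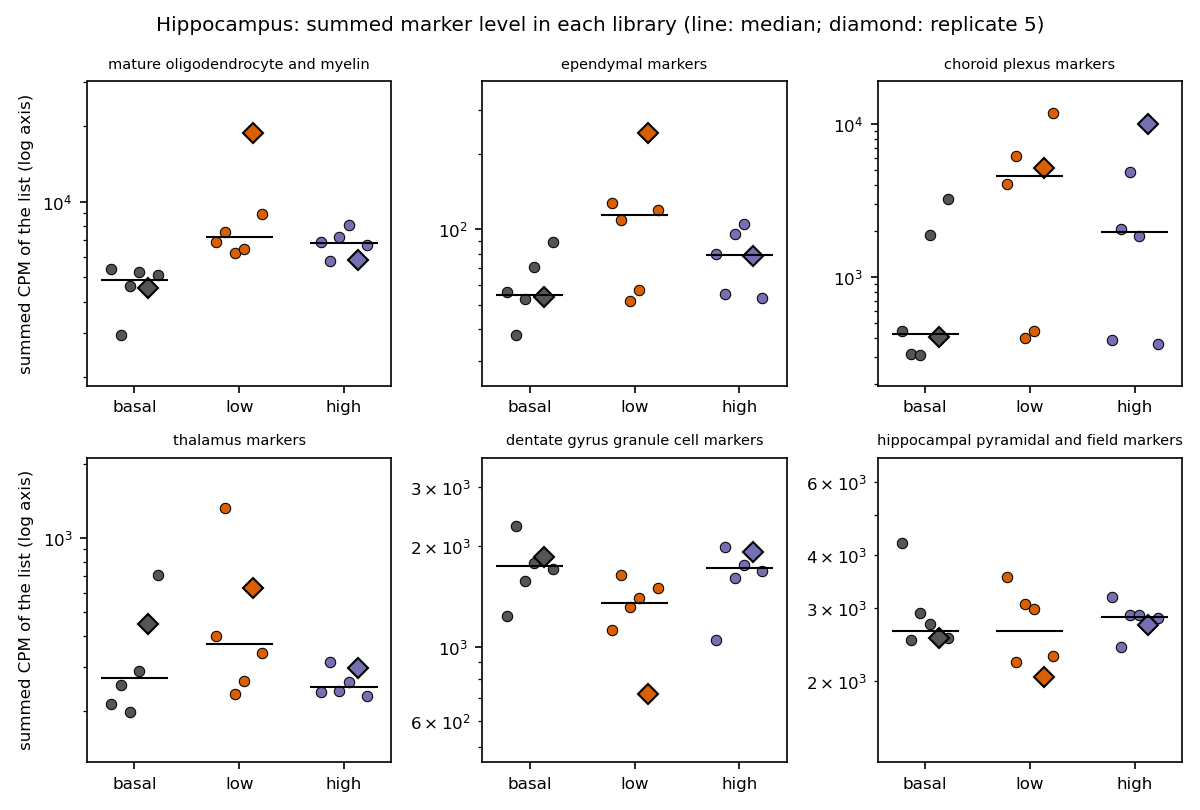
Summed CPM of 6 marker lists in each hippocampal library on log axes, by group, with a line at each median and a diamond for replicate 5. The myelin sums of the low group (6240 to 18759 CPM) lie above the basal ones (2956 to 5403 CPM), choroid plexus sums overlap, and low replicate 5 has the highest myelin and the lowest dentate granule cell sum.

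Markers of dentate gyrus granule cells were lower. All 15 tested lay below 0, 6 of them at an unadjusted p under 0.05, with a median of -0.41 and none called. Their summed level was 1231 to 2285 CPM in the basal group and 721 to 1632 CPM in the low group, and it was lower in the low library in all 6 tag runs. Dsp, the desmosomal plaque protein that marks granule cells, measured 113, 174 and 196 CPM in the basal libraries and 46.2, 116 and 147 CPM in the low libraries. The difference was -0.55 (SE 0.21, adjusted p = 0.668, edgeR), and -0.39 without low replicate 5. Prox1, the transcription factor that sets granule cell identity, differed by -0.49 (SE 0.29) and was lower in 6 of 6 runs. Calb1, the calcium buffer calbindin, differed by -0.41 (SE 0.18). Without low replicate 5 the median of the list was -0.33, and with the myelin covariate it was 0.08. Pyramidal and field markers had no common direction: 8 of 20 lay above 0 and the median was -0.09, or 0.0036 without low replicate 5. Neurod6, a factor of pyramidal neurons, differed by -0.09 (SE 0.17), or by -0.014 without it.

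The genes with the smallest p-values among those lower, by the naming rule, were Bhlhe22, Adamts17, Fam163b, Krt9, Ubp1, Vwa3b, Parvg and Sowaha, with adjusted p from 0.210 to 0.432 by edgeR. In 4 of the 8 (Bhlhe22, Fam163b, Ubp1 and Sowaha) all 6 low libraries lay below every basal library. Over all 13515 genes tested this held for 16 (0.118%). The 8 were picked by their p-values on these same libraries, so little overlap among them follows from the choice. Bhlhe22, a neuronal transcription factor (chromosome 3, 18054174 to 18057517), measured 105, 126 and 138 CPM in the basal libraries. The low libraries measured 71.6, 91.9 and 96.5 CPM. The difference was -0.45 (SE 0.11, adjusted p = 0.210, edgeR), and this was the 1 lower gene called by DESeq2 (adjusted p = 0.0223). Fam163b measured 258, 278 and 309 CPM in the basal libraries and 171, 223 and 236 CPM in the low libraries. Its difference was -0.40 (SE 0.11, adjusted p = 0.293, edgeR). Adamts17, a secreted metalloprotease, differed by -0.64 (SE 0.18), and Ubp1, a transcription factor, by -0.33 (SE 0.10). With the myelin covariate the differences were -0.27 for Bhlhe22, -0.29 for Adamts17, -0.11 for Ubp1 and -0.09 for Sowaha, all nearer 0, and -0.48 for Fam163b.

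The receptors and adaptors of insulin signalling gave no call. Of 17 tested, 12 lay above 0, with a median of 0.14, 2 were higher at an unadjusted p under 0.05 and none lower. The median was 0.11 without low replicate 5 and 0.21 with the myelin covariate. Insr, the insulin receptor, measured 66.5, 97.6 and 123 CPM in the basal libraries and 56.6, 100 and 128 CPM in the low libraries, with full overlap. Its difference was 0.00 (SE 0.17, adjusted p = 0.997, edgeR), and an error of that size leaves room for a modest difference either way. It was 0.39 with the myelin covariate, and 0.12 without low replicate 5. Irs1 differed by 0.14 (SE 0.29, or 0.34 without that library) and Irs2 by -0.05 (SE 0.21, or 0.11 without it). The IGF1 receptor gene Igf1r differed by 0.40 (SE 0.25, or 0.54 without it). With the myelin covariate Irs1 was at 0.72, Irs2 at 0.25 and Igf1r at 0.67. Gab1, a docking protein that links receptors to PI3 kinase, was higher by 0.65 (SE 0.18, adjusted p = 0.284, edgeR), with 0.42 without low replicate 5 and -0.03 with the myelin covariate. Igfbp2, an IGF-binding protein that choroid plexus and meninges also make, was higher by 1.62 (SE 0.56).

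Kinases and regulators of the PI3K, AKT and mTOR arms lay mostly below 0, 17 of 22, with a median of -0.09 (-0.03 without low replicate 5, and 0.17 with the myelin covariate) and 1 member at an unadjusted p under 0.05. That member was Pik3r1, the p85 regulatory subunit of PI3 kinase. It measured 75.8, 87.9 and 99.7 CPM in the basal libraries and 91.5, 103 and 135 CPM in the low libraries. It was higher by 0.28 (SE 0.10, adjusted p = 0.635, edgeR) and in 6 of 6 tag runs, by 0.29 without low replicate 5 and 0.25 with the myelin covariate. Deptor, an inhibitor of mTOR, differed by 0.41 (SE 0.23).

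FOXO factors and genes induced by fasting gave 14 of 23 above 0, a median of 0.05 (0.12 without low replicate 5, and -0.05 with the myelin covariate), and 5 higher at an unadjusted p under 0.05. Foxo1 differed by -0.16 (SE 0.17, or -0.10 without that library) and Foxo3 by 0.00 (SE 0.13). Sgk1, a kinase induced by glucocorticoids and also made by oligodendrocytes, measured 168, 224 and 261 CPM in the basal libraries and 234, 286 and 589 CPM in the low libraries. It was higher by 0.65 (SE 0.19, adjusted p = 0.354, edgeR), and by 0.43 without low replicate 5. Cdkn1a, the cell cycle inhibitor p21, was higher by 0.87 (SE 0.32), and by 0.41 without that library, which held 244 CPM against 97.6 CPM in the next. Txnip, an arrestin that rises with glucose, differed by 0.44 (SE 0.23), Sesn3 by 0.39 (SE 0.41), and Angptl4, an inhibitor of lipoprotein lipase, by -0.41 (SE 0.26).

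Glucocorticoid-responsive genes, some of which are also in the FOXO list, gave 17 of 22 above 0, a median of 0.19, and 6 higher at an unadjusted p under 0.05, none called. Arrdc2, an arrestin-domain protein, measured 15.2, 24.4 and 46.4 CPM in the basal libraries and 34.1, 50.4 and 124 CPM in the low libraries. It was higher by 1.19 (SE 0.33, adjusted p = 0.285, edgeR), or by 0.88 without low replicate 5. Plin4, a lipid droplet coat protein, was higher by 0.91 (SE 0.27). Fkbp5, a chaperone widely used as a readout of glucocorticoid action, differed by 0.12 (SE 0.17), and Per1 by 0.09 (SE 0.17). Without low replicate 5, Fkbp5 was at -0.053 and Per1 at 0.036. The median of the list was 0.05 without low replicate 5 and -0.09 with the myelin covariate. The list was thus divided, with the standard marker Fkbp5 near 0.

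Glucose transport and glycolysis gave 16 of 23 above 0 and a median of 0.10, whose sign did not hold: it was -0.013 without low replicate 5 and -0.22 with the myelin covariate. One member had an unadjusted p under 0.05, Slc2a4, which encodes the insulin-responsive transporter GLUT4. It measured 1.20, 1.40 and 2.33 CPM in the basal libraries and 2.14, 3.55 and 5.55 CPM in the low libraries, with 4 low libraries above every basal one. It was higher by 1.17 (SE 0.30, adjusted p = 0.278, edgeR), by 1.08 without low replicate 5 and by 0.64 with the myelin covariate, at a low level throughout. Slc2a1, the glucose transporter of the blood-brain barrier, differed by 0.22 (SE 0.21), or by 0.020 without low replicate 5, and Slc2a3, the neuronal one, by -0.17 (SE 0.11).

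Synaptic, receptor and channel lists had medians slightly below 0. None of 25 synaptic plasticity and postsynaptic density genes lay above 0 (median -0.13), none had an unadjusted p under 0.05, and the median was -0.06 without low replicate 5. GABA receptor subunits gave 2 of 14 above 0 (median -0.18, or -0.08 without that library) and glutamate receptors 7 of 24 (median -0.11), in which Grm2, a presynaptic receptor of granule cells, differed by -0.32 (SE 0.15, adjusted p = 0.825, edgeR). Potassium and HCN channels gave 14 of 41 above 0 (median -0.07, or -0.04 without it), with Kcna6 higher by 0.34 (SE 0.13, or 0.23 without it) and Kcnj10, the glial inward rectifier, by 0.28 (SE 0.13). With the myelin covariate these medians turned to 0.03 (synaptic), 0.24 (GABA receptors), 0.10 (glutamate receptors) and 0.17 (potassium and HCN channels). Other neuronal lists lay above 0. Neuropeptides gave 17 of 20 above 0 (median 0.19, or -0.0039 without low replicate 5), and interneuron markers had a median of 0.06 (-0.0084 without it). Immediate early genes gave 14 of 27 above 0 (median 0.03, or -0.015 without it). Fos differed by 0.18 (SE 0.36, or 0.08 without it), and Bdnf, the neurotrophin of activity-dependent plasticity, by -0.08 (SE 0.16). None of the 11 mitochondrially encoded genes lay above 0 (median -0.17), while 36 of 40 ribosomal protein genes did (median 0.12, or 0.04 without low replicate 5). None of either list had an unadjusted p under 0.05. With the myelin covariate these medians also changed sign, to 0.15 (mitochondrial) and -0.18 (ribosomal), as did that of neuropeptides (-0.05). Dcc, the netrin receptor, differed by 0.91 (SE 0.59) at 1.20 to 5.79 CPM.

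**Figure D3:**
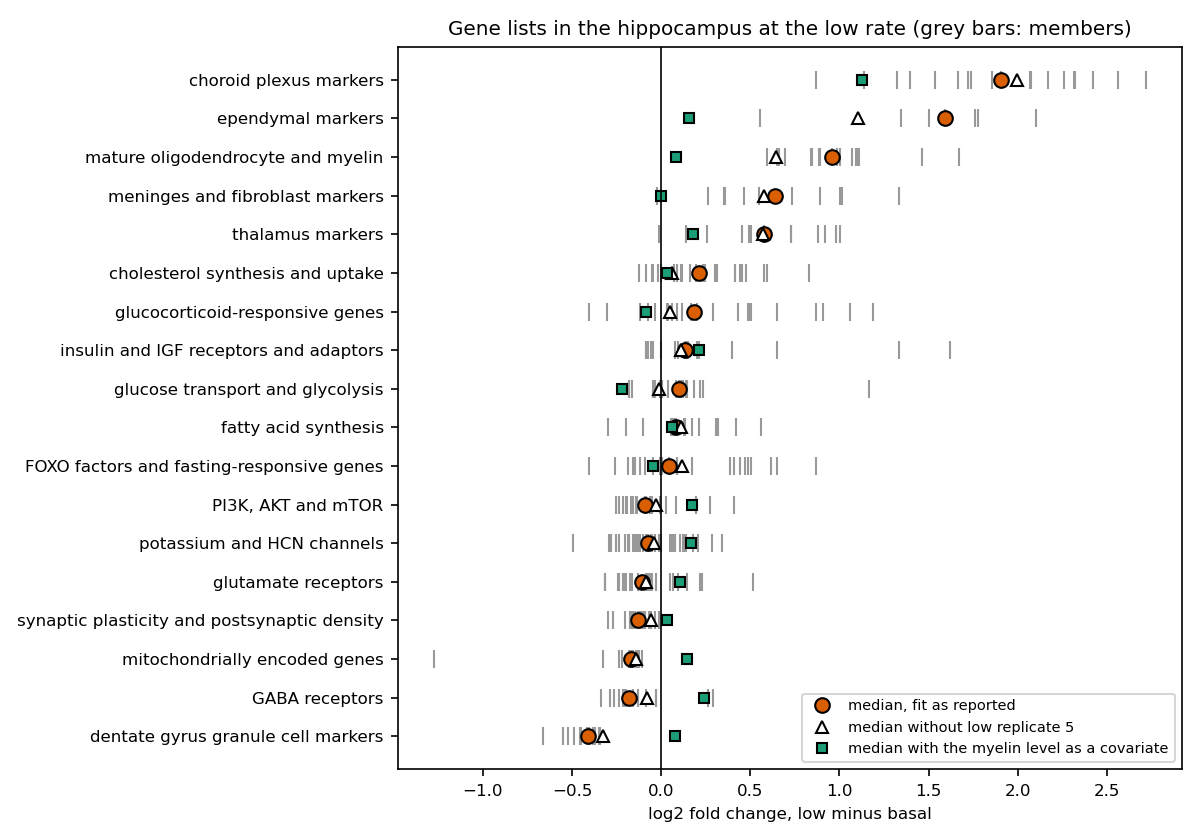
Log2 fold changes (low minus basal) of the tested members of 18 gene lists as grey bars, with the list median as reported, without low replicate 5, and with the myelin level as a covariate. Choroid plexus, ependymal and myelin lists have medians of 1.91, 1.59 and 0.96, dentate granule cell markers have -0.41, and the myelin covariate brings the myelin, ependymal and dentate medians to 0.08, 0.16 and 0.08.

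The high rate gives a second set of values against the same basal libraries, so the 2 comparisons share their controls. Insig1 measured 41.6, 52.5 and 65.6 CPM in the high libraries, and all 6 lay above every basal library, with a log2 fold change of 0.52 (SE 0.13). Mal was higher than basal by 0.67 (SE 0.16) and Mobp by 0.62 (SE 0.23), and the myelin sums of the high group lay at 5784 to 8047 CPM, also above every basal library. The dentate list, in contrast, had a median of -0.14 at the high rate, with 4 of 15 above 0, and the thalamus list -0.52. Dcc was higher by 2.33 (SE 0.56) at the high rate, where its libraries had a median of 3.98 CPM. High replicates 5 and 6 were far above that, at 25.1 and 20.9 CPM. At the high rate the adjusted p was 0.99997 (edgeR) for each of Insig1, Mal, Mobp and Dcc.

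**Figure D4:**
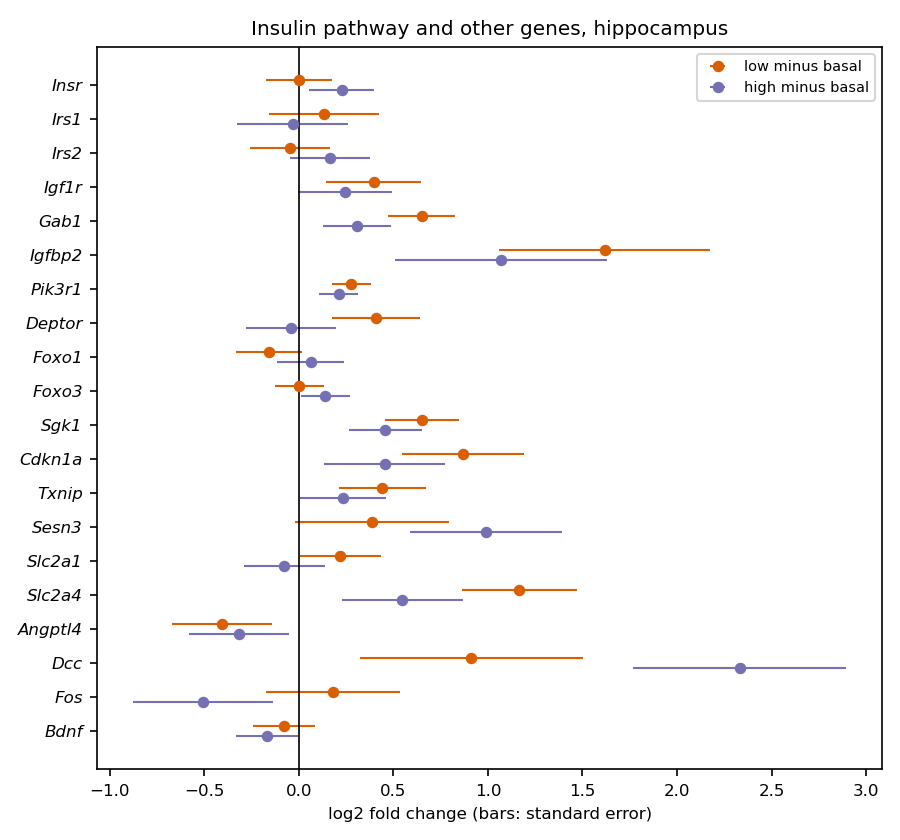
Log2 fold changes with standard errors for 20 genes of insulin signalling, fasting response, glucose transport and neuronal activity, low minus basal and high minus basal, which share the basal libraries. Insr and Foxo3 are at 0.00 at the low rate, Pik3r1 is at 0.28, Slc2a4 at 1.17 and Dcc at 0.91, and none was called.

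Whether the low rate acted differently in the hippocampus than in the other regions was tested by interaction terms in a fit of all 52 libraries. Against the hypothalamus 0 of 14985 genes were called (0%, edgeR, 3634 at an unadjusted p under 0.05), and against the nucleus accumbens 0 (0%, 790 at an unadjusted p under 0.05). The count against the hypothalamus depended on the fit, with 334 genes called when the tag run was a batch term and 40 by DESeq2, and DESeq2 called 4 against the nucleus accumbens. Among the named genes, Foxj1 had a hippocampus minus hypothalamus difference of 2.21 (SE 0.50), with an adjusted p of 0.0624 by edgeR, or 0.0442 with the tag run as a batch term. For Insig1 the low rate gave 0.68 in the hypothalamus (adjusted p = 0.0109, edgeR) and 0.12 in the nucleus accumbens. Its hippocampal value in the same fit was 0.59 (adjusted p = 0.0169, edgeR). The hippocampus minus hypothalamus difference was -0.09 (SE 0.18), and hippocampus minus accumbens was 0.47 (SE 0.17, adjusted p = 0.707, edgeR). Mal gave 0.41 and -0.17, with a hippocampus minus accumbens difference of 1.06 (SE 0.23, adjusted p = 0.195, edgeR), which DESeq2 called (adjusted p = 0.0425). The myelin list had medians of 0.29 in the hypothalamus and -0.10 in the nucleus accumbens.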

How the data were processed

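RNA from 52 mouse brain samples was sequenced by the authors as directional libraries. The deposited table holds raw counts per Ensembl gene for 46071 genes, made with STAR and featureCounts on GRCm38.p4, per the submitters' processing notes. The versions, annotation and strand setting were not given in the sources used here, so overlapping antisense genes may share reads. Names came from GENCODE M21 and matched 45143 genes.

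All 18 hippocampal libraries entered 1 edgeR fit (version 4.0.16, R 4.3.3, trimmed mean of M values, filterByExpr, quasi-likelihood test), from which low minus basal was read. Genes were called at an adjusted p under 0.05. The SE is the fold change over the root of the F statistic. The fit was tested on simulated data. DESeq2 1.42.0 and limma 3.58.1 were alternatives, as were batch terms, covariates and leaving out each of the 12 libraries. Genes are named where they were the 8 with the smallest p in a direction (mean CPM of at least 5, predicted genes left out), the 2 with the smallest p in a described list, or on a fixed list always given. Some genes that this rule names are not reported here. Other list members were named after their values were seen. Members, lists and naming were chosen with earlier results of these data known. No 2 libraries of a group were alike within sampling noise (chi-square per gene at least 3.77 over 30 pairs). Promoter sequences are from RefSeq.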

Additional observations from a re-analysis of the deposited data

Results flagged for a closer look

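The 62 named genes give 124 groups of 6 libraries, in which 13 single libraries stood away from the other 5 of their group by a gap large against the group's range. Chance flags about 1 group in 20. Of the 13, 12 were low replicate 5. It was the highest of its group for Mobp (2555 CPM, next 1463), Efhd1 (52.8 CPM, next 27.6), Elovl1 (38.2 CPM, next 22.5), Olig1 (188.9 CPM, next 109.6), Rarres2 (16.2 CPM, next 5.07), Gab1 (91.2 CPM, next 53.5), Cdkn1a (244 CPM, next 97.6), Kcna6 (111 CPM, next 77.6) and Slc2a1 (429 CPM, next 268). It was the lowest for Bhlhe22 (71.6 CPM, next 87.9), Dsp (46.2 CPM, next 110) and Irs1 (4.20 CPM, next 16.0). In the basal group, replicate 6 was highest for Ttr (1178 CPM, next 394). Low replicate 5 also had the highest myelin sum, 18759 CPM. The part of its tissue makeup in these values was not tested.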

How the results depend on the processing

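The count of 0 called genes was the same under 24 of 26 alternatives, including each of the 12 fits that left out 1 library. It moved to 38 with DESeq2 (37 higher, 1 lower) and to 101 with all 52 libraries in one fit, all higher. With a batch term for the tag run no gene was called. The smallest adjusted p was then 0.0551, and 56 genes had an adjusted p under 0.1 (edgeR). The interaction with the hypothalamus gave 334 genes with the tag run as a batch term, 40 with DESeq2 and 48 at an adjusted p under 0.1. That with the nucleus accumbens gave 4 with DESeq2. The causes were not tested.

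Of 62 named genes, 39 kept their direction under every alternative run. With the myelin level as a covariate (chosen after the data were seen) the log2 fold change reversed for Elovl1 (-0.041), Olig1 (-0.23), Dsp (0.0031), Glis3 (0.24), Gab1 (-0.028), Sgk1 (-0.058), Cdkn1a (-0.33), Grik2 (0.25), Gabbr2 (0.10), Irs2 (0.25), Foxo1 (0.13), Txnip (-0.18), Slc2a1 (-0.34), Fos (-0.17), Bdnf (0.069), Neurod6 (0.22) and Prox1 (0.11). With the choroid plexus level it reversed for Kcnj13 (-0.030), Folr1 (-0.20), Ttr (-0.17), Insr (-0.061), Irs2 (0.025) and Foxo3 (-0.020). With the total count it reversed for Insr (-0.038) and Irs2 (0.013). Insr was also reversed in the 12 libraries alone with the tag run (-0.011), without the lowest tag range (-0.038) and in limma-voom (-0.022), which also reversed Irs1 (-0.015). Over the fits without 1 library, Insr ranged from -0.097 to 0.12, Irs2 from -0.18 to 0.11, Foxo3 from -0.071 to 0.070 and Bdnf from -0.14 to 0.021.

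The labels share no replicate numbers between groups. The main fit held no block, and the tag run served as one in alternative fits only. Libraries of the same run correlated in their deviations from the group means at a median of 0.36 (-0.19 to 0.55, 5 of 6 pairs over 0.1), against -0.01 for other runs (-0.64 to 0.42). The exception was the pair of replicate 5. Low genes such as Slc2a4, Gjb1 and Kcnj13 rest on few counts at these depths.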
